A study of Homo sapiens with 4 samples.

Results

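The replication-dependent histone genes were examined in ATAC-seq libraries of OPM-2, an established human multiple myeloma cell line, an assay in which the Tn5 transposase inserts sequencing adapters into open DNA. The members were the protein-coding RefSeq genes with a symbol that begins with H1-, H2AC, H2BC, H3C or H4C followed by a digit, which gave 74 genes of 19974. A peak belonged to the histone genes when the nearest protein-coding gene body to its summit, within 100 kb, was one of these 74. Merged over the lists, 107 regions of 122632 met this rule. The groups were OPM-2 cells kept for 72 h with 1 µM all-trans retinoic acid (ATRA) and 1 µM pomalidomide (POM) together, with 1 µM POM, with 1 µM ATRA, or with the vehicle DMSO. ATRA is a ligand of the retinoic acid receptors and POM an immunomodulatory drug that binds cereblon. Each group had 1 library, so no difference below has a replicate check, no test was possible, and intervals cover counting error only. In bulk libraries, fewer cells with an open site and less opening per cell cannot be told apart.

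Replication-dependent histone genes supply the proteins that package newly copied DNA. They are transcribed mainly in S phase, have no introns in their usual form, and give messages that end in a stem-loop in place of a poly(A) tail. In human cells they lie in a large cluster on the short arm of chromosome 6 (6p22) and in smaller ones on chromosome 1 (1q21 and 1q42). The core histones H2A, H2B, H3 and H4 form the nucleosome, and the linker histone H1 binds the DNA where it enters and leaves. The NPAT protein and histone locus bodies, nuclear structures that form at these clusters, are known to support this transcription. The name rule also takes in genes such as H1-10, which is expressed outside S phase, and the germline forms H1-6, H1-7, H1-8, H2AC1 and H2BC1. Of the 74 genes, 55 lay at 6p22, 11 at 1q21, 2 at 1q42 and 6 elsewhere. By family there were 10 H1, 17 H2A, 19 H2B, 13 H3 and 15 H4 genes.

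Promoter sequences were available for 67 of the 74 genes. Entries for the others, among them H2AC12, H4C3, H3C12, H2BC12L, H4C1 and H3C11, were not used here. The 200 bases before the start of 8 genes are shown, 5′ to 3′ on the strand of the gene, from RefSeq (GRCh38.p14). They are 4 pairs, each with the promoter of its family that had a peak and led by the DMSO −log10 q-value. The second gene of a pair is of that family at 6p22, without a peak in any list. It has no 50-base word shared with another histone promoter, the only ones searched. In H1, H3 and H4 the second gene is the nearest such gene to the first. For H2B the first is H2BC21 at 1q21, which shares its window with the divergent gene H2AC20, and the second, H2BC9, is the non-germline gene closest to the median position of the histone genes on chromosome 6. Capitals mark matches, on either strand, to the letters of a CCAAT box (CCAAT), of a TATA box (TATAAA), of the octamer that POU factors bind (ATTTGCAT), of a part of the H4 site that HINFP reads (GTCCG) and of the H1 AC box (AAACACA). Where matches overlap, as a CCAAT and a GTCCG do in H2BC21, their capitals run together. The H1 pair is H1-2 at chr6:26056471-26056670 (minus strand) and H1-1 at chr6:26017788-26017987 (minus strand).
H1-2: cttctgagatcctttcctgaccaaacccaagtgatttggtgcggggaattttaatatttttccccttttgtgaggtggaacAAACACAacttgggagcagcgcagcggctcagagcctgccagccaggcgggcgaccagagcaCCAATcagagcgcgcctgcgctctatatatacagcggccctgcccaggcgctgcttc
H1-1: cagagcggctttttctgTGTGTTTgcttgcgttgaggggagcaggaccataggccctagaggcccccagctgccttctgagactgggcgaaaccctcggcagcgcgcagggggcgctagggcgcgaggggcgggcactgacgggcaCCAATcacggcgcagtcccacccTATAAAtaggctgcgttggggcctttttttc
The H2B pair is H2BC21 at chr1:149886683-149886882 (minus strand) and H2BC9 at chr6:26251414-26251613 (plus strand).
H2BC21: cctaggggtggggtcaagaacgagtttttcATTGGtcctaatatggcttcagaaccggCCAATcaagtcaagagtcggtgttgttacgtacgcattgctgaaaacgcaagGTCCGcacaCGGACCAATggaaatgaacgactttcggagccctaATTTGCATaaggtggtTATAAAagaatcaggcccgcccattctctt
H2BC9: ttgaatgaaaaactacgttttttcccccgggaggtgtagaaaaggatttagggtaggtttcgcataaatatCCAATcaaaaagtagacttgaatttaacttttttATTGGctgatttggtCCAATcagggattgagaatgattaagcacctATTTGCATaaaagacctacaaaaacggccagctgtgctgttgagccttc
The H3 pair is H3C2 at chr6:26032100-26032299 (minus strand) and H3C1 at chr6:26020251-26020450 (plus strand).
H3C2: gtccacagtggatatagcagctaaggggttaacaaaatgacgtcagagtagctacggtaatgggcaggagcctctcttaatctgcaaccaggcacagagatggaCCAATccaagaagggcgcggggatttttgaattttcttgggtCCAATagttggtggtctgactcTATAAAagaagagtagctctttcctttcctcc
H3C1: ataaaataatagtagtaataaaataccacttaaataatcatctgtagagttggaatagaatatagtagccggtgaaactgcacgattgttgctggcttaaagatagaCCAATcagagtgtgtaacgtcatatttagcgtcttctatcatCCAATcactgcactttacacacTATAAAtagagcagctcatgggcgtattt
The H4 pair is H4C8 at chr6:26285535-26285734 (minus strand) and H4C7 at chr6:26246997-26247196 (minus strand).
H4C8: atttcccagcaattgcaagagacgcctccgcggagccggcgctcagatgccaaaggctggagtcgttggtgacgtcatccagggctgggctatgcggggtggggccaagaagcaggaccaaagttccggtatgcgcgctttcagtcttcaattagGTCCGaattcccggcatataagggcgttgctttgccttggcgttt
H4C7: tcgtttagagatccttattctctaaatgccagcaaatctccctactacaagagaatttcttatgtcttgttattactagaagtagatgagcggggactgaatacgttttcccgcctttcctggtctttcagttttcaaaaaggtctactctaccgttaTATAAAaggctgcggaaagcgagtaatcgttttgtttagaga
Both H3 promoters carry CCAAT on the plus strand of the gene at a pair of places, starting at −96 and −54 in H3C2 and at −93 and −51 in H3C1, and TATAAA close to the start in each. H3C2 had a peak in every library and H3C1 in none. The octamer letters stand at −46 in H2BC21 and at −49 in H2BC9, which had no peak. A match is a description of the letters and not of binding.

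From 250 bases before to 50 bases after the start, the families differed in these letters. CCAAT was in all 16 H2A, all 18 H2B and all 11 H3 promoters with an entry, in 7 of 9 H1 promoters and in 3 of 13 H4 promoters, against 34.6% of all 35116 promoters. ATTTGCAT was in 11 of 16 H2A and 14 of 18 H2B promoters and in 0 of the H1, H3 and H4 promoters, against 1.77% of all promoters. GTCCG was in 12 of 13 H4 promoters against 28.9% of all, and AAACACA in 7 of 9 H1 promoters against 5.64% of all. TATAAA was in 43 of the 67 histone promoters (64.2%) against 11.5% of all. Between promoters with a peak in all lists and those with none, the octamer letters were in 20 of 41 and 5 of 25, and CCAAT in 34 of 41 and 21 of 25. The octamer letters were in H2A and H2B promoters only, and these families had the larger shares of covered genes. The octamer contrast over all promoters therefore includes a difference between families. A contrast within H2A and H2B is not given here and was not tested. The 11 H2A and H2B pairs that start back to back, 194 to 248 bases apart, share part of their windows, so these counts are not of independent sequences.

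The lists held 85434 peaks for ATRA+POM, 69162 for POM, 76636 for ATRA and 76402 for DMSO. Summit pileup, the number of reads piled up at the highest point of a peak, was recovered from the deposited fold and p-value, with a median over all peaks of 22, 15, 27 and 30 reads in the same order. The POM library was the shallowest, with a scale of 0.396 against DMSO, where ATRA+POM had 0.707 and ATRA 0.873. These scales are median pileup ratios over 42930 regions called in all lists, and scaled values below are divided by them. Of 9 plasma cell marker genes, 7 had a region within 1 kb of a gene boundary in every list, among them SDC1, IRF4 and XBP1, and SLAMF7 and CD79A had none. None was called at the B cell genes PAX5 and MS4A1, at the monocyte genes CD14, LYZ and CSF1R, or at the erythroid gene HBB. Of the other markers read, BACH2, CD3E and KRT18 had a region in all lists and CD3D and CD2 in some, while EPCAM and CDH1 had none.

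Peaks nearest to a histone gene numbered 88 in ATRA+POM, 88 in POM, 83 in ATRA and 86 in DMSO. As a share of the list this was 0.103% in ATRA+POM (95% exact binomial interval 0.0826 to 0.127), 0.127% in POM (0.102 to 0.157), 0.108% in ATRA (0.0863 to 0.134) and 0.113% in DMSO (0.09 to 0.139). The intervals of all 4 libraries overlap. The 6p22 cluster held 66, 66, 61 and 60 of these peaks in ATRA+POM, POM, ATRA and DMSO, and 1q21 held 12, 12, 11 and 14. At 1q42 there were 4, 4, 3 and 3 peaks, none of them at the start of H2AC25 or H2BC26, the divergent pair there. Peaks with a summit within 1 kb of a boundary of the histone gene, called boundary peaks below, numbered 40 in ATRA+POM, 40 in POM, 35 in ATRA and 35 in DMSO. These counts include several peaks in 1 merged region. Of the 34 boundary regions called in every list, 5 in ATRA+POM, 6 in POM, 0 in ATRA and 1 in DMSO held more than 1 peak. Boundary peaks were narrower in the POM-containing libraries, with a median width of 953 bp in ATRA+POM and 746 bp in POM, against 1323 bp in ATRA and 1328 bp in DMSO. Over all boundary peaks of the lists the median widths were 889, 692, 1009 and 1042 bp.

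**Figure D1:**
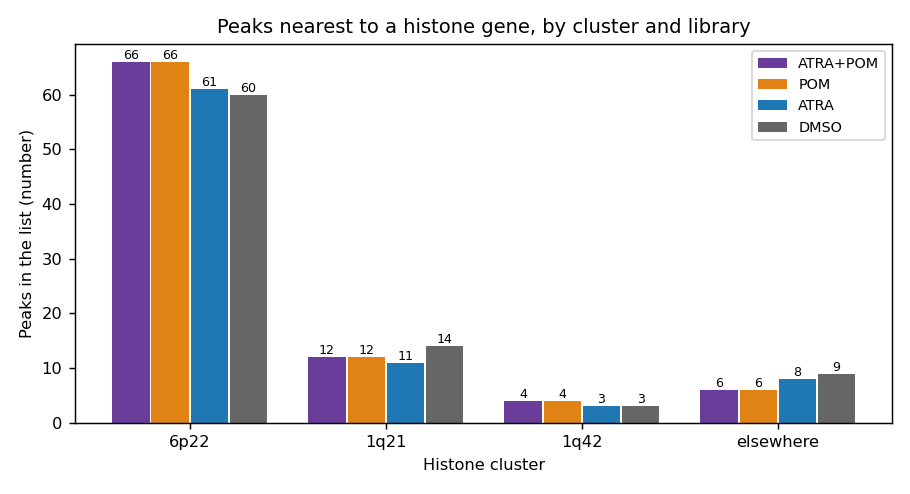
Number of peaks (vertical axis) whose nearest protein-coding gene body within 100 kb is a histone gene, by cluster (horizontal axis) and library (bars), 1 library per group. The 6p22 cluster holds 66, 66, 61 and 60 peaks in ATRA+POM, POM, ATRA and DMSO, and the other clusters hold 14 or fewer each.

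Most histone gene starts were either open in every library or called in none. A peak covered the promoter window of 44 of the 74 genes in all lists, or the gene body where no window was available, and 28 genes had a peak in no list. The other 2 were called in some lists. The H4C11 window was covered in ATRA+POM, ATRA and DMSO and not in POM, where the narrower peak of the same region did not reach it. The 44 genes shared fewer distinct peaks, because divergent pairs and close neighbours lie under 1 peak. Of these genes, H4C16 on chromosome 12, lay under the edge of a peak that the rule gives to its neighbour LOC105369669, with 182 reads in ATRA+POM, 79 in POM, 242 in ATRA and 243 in DMSO. Of the 11 divergent H2A and H2B pairs, 9 were covered in all lists, and the pairs H2AC25/H2BC26 and H2AC1/H2BC1, the second a germline pair, were covered in none.

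The share of genes with a peak in all lists differed by family. It was 13 of 17 H2A genes and 13 of 19 H2B genes, against 5 of 13 H3, 8 of 15 H4 and 5 of 10 H1 genes. The H1 genes covered in all lists were H1-2, H1-3, H1-4, H1-5 and H1-10. H1-1, the remaining somatic linker histone at 6p22, had no peak in any list, and neither did the germline genes H1-6, H1-7 and H1-8. The H3 genes covered were H3C2, H3C4, H3C10, H3C12 and H3C13.

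Along 6p22, covered and uncovered genes came in runs. The first 5 genes in order along chromosome 6, from H2AC1 to H4C1, had no peak, and the next 3, from H4C2 to H2AC4, all did. A run of 5 genes from H4C6 through H4C7, H3C7 and H2BC9 to H3C8, which spans 31 kb, had no peak in any list. It was followed by 18 covered genes in a row, from H2BC10 to H1-5, where H4C11 lacked only the POM call. All 5 genes of the middle block, H2BC11 to H2AC12, were covered in every library, as were 13 of the 16 genes from H2BC13 to H2BC17.

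At 1q21, 5 of 11 genes were covered, namely H2BC18, H3C13, H2BC21, H2AC20 and H2AC21. The other 6 were H4C14, H3C14, H2AC18, H4C15, H2AC19 and H3C15. The promoters of these 6 share 98.4 to 100% of their 50-base words with another copy, so reads within such words cannot be given to 1 place and the absence of a call there is uncertain. Of the 25 uncalled genes with a promoter entry, the other 19 share no such word with another of the 67 histone promoter windows. The rest of the genome was not searched, so whether reads can be placed at these 19 was not settled.

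**Figure D2:**
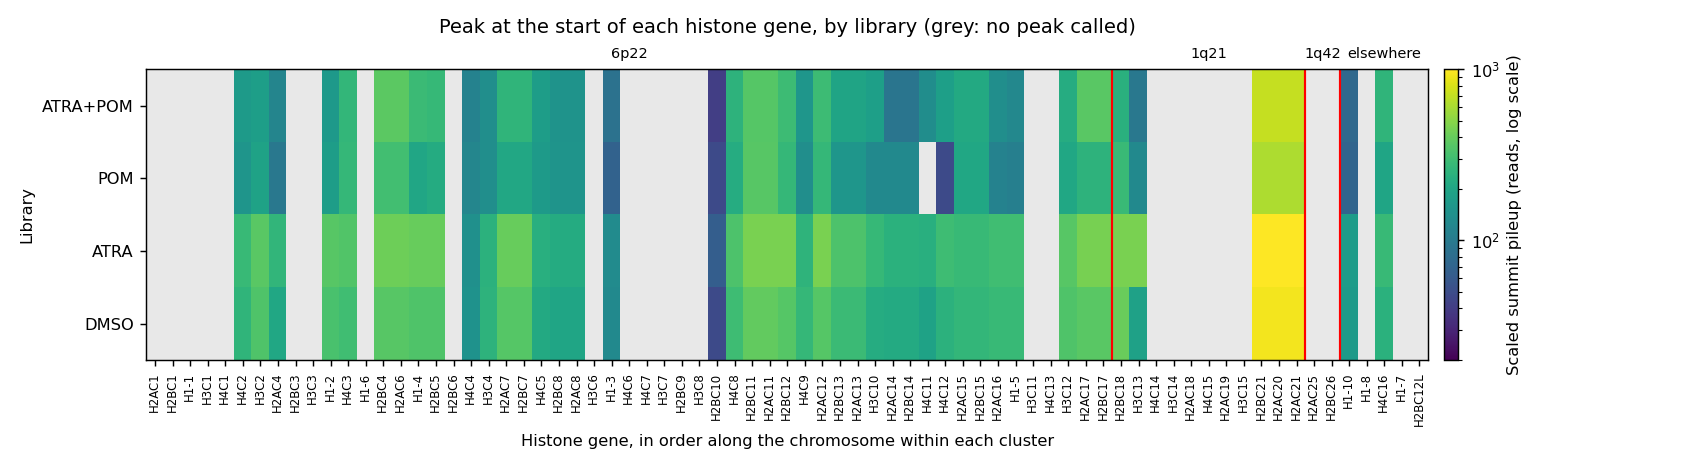
Scaled summit pileup (colour, log scale, in reads) of the peak over the start of each of 73 histone genes (columns, in order along the chromosome within each cluster) in the 4 libraries (rows). Grey means no peak called: 28 genes are grey in all libraries, and the pair H2BC21 and H2AC20 with H2AC21 at 1q21 has the highest pileup in each.

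The histone boundary regions were among those kept in every list. Of 36 boundary regions, 34 were called in all 4 libraries (94.4%), against 76.5% of the 12466 boundary regions of the series. Of the 71 regions farther from a histone gene boundary, called distal below, 29 were in all lists (40.8%), against 35% of all 122632 regions. Over the 41 covered promoters with an entry, pileup at the summit ranged from 29 to 501 reads in ATRA+POM (median 138), from 19 to 246 in POM (median 70), from 56 to 935 in ATRA (median 291) and from 48 to 934 in DMSO (median 281). The lowest value in ATRA+POM, ATRA and DMSO belonged to H2BC10, in POM H2BC10 and H4C12 shared it with 19 reads each, and the highest in every library belonged to the H2BC21 and H2AC20 region.

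The region over H2BC21, H2AC20 and H2AC21 (chr1:149885669-149888568) had 501 reads in ATRA+POM, 246 in POM, 935 in ATRA and 934 in DMSO. By −log10 q-value it stood 1.94% from the top of the 42930 shared regions in ATRA+POM, 2.4% in POM, 0.755% in ATRA and 1.27% in DMSO. It was the highest of the histone regions in every library. The region over H2BC18 and H3C13 (chr1:149811995-149813760) had 170 reads in ATRA+POM, 113 in POM, 396 in ATRA and 410 in DMSO. It stood 7.56% and 4.51% from the top in ATRA+POM and POM, against 1.48% and 1.82% in ATRA and DMSO. Next by the DMSO q-value came the H4 genes H4C3, H4C8 and H4C12, whose protein pairs with H3 at the centre of the nucleosome. H4C3 had 188 reads in ATRA+POM, 108 in POM, 301 in ATRA and 303 in DMSO, and H4C8 had 176, 89, 292 and 298 in the same order. H1-2 and H3C2 followed, and then the divergent pairs H2AC6 with H2BC4 and H2AC12 with H2BC12. The only distal region in the first 10 lay 30 kb from H2AC12, with 97 reads in ATRA+POM, 63 in POM, 141 in ATRA and 190 in DMSO.

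Ranked by −log10 q-value among the 42930 shared regions, the 34 histone boundary regions had a median position of 21.5% from the top in ATRA+POM, 27.3% in POM, 16.6% in ATRA and 19.7% in DMSO. All 9537 shared boundary regions had medians of 21.1%, 21.5%, 14.8% and 14.9%, so the histone regions stood lower than the median boundary region, by the most in POM. Ranked within the whole list, boundary peaks had medians of 13.9% in ATRA+POM, 20.8% in POM, 9.89% in ATRA and 11.5% in DMSO, against 13.2%, 16.6%, 10.5% and 10.6% for all boundary peaks, so that ATRA went the other way. Their pileup was higher, not lower. The median was 126 reads in ATRA+POM, 61.5 in POM, 244 in ATRA and 262 in DMSO, against 90, 51, 162 and 191 reads for all boundary regions. The local background against which the peak was called was higher too. It was 15.6, 6.52, 38.8 and 45.2 reads at the histone boundary regions, against 7.05, 3.08, 14.6 and 16.7 reads at all boundary regions. The deposited fold, pileup over that background, was accordingly lower at the histone regions, with medians of 6.48, 8.14, 5.74 and 5.52 against 11.3, 12.4, 10.2 and 10.5. Relative to the smallest background of each list, the median at the histone regions was 10.4-fold in ATRA+POM, 11.8-fold in POM, 16.5-fold in ATRA and 19.1-fold in DMSO. All 63 shared histone regions, distal ones included, had median positions of 32.9%, 35.2%, 22.2% and 25.4%.

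**Figure D3:**
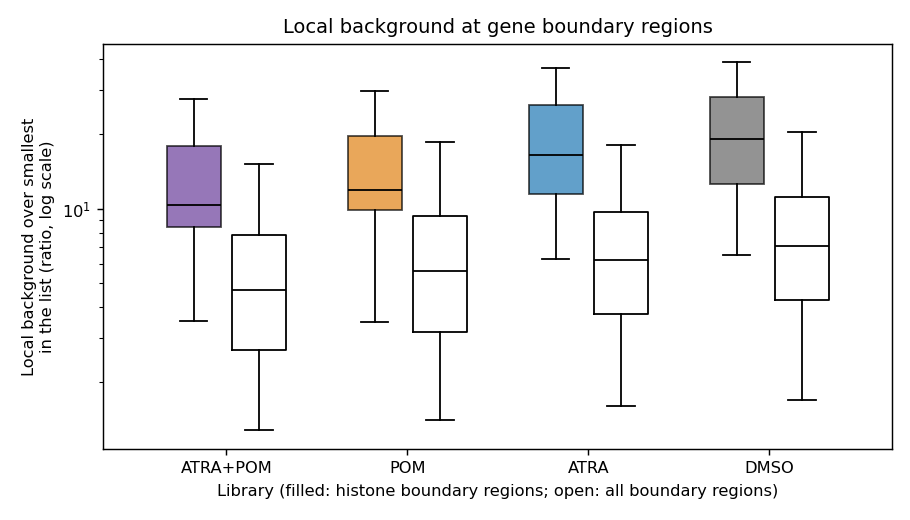
Local background at the summit divided by the smallest background in the same list (vertical axis, log scale) for the 34 histone boundary regions (filled boxes) and all 9537 shared boundary regions (open boxes) in the 4 libraries. Boxes give the quartiles and median, and whiskers the 5th and 95th percentiles. The histone medians are 10.4 in ATRA+POM, 11.8 in POM, 16.5 in ATRA and 19.1 in DMSO, each above the median of all boundary regions.

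In POM against DMSO, the histone gene boundaries had lower scaled pileup in nearly every region. The comparison asks what POM did without ATRA. Of 34 boundary regions, 21 were lower by 1.5-fold or more and 0 higher, with a median log2 ratio of -0.75 and a range from -1.76 to 0.00. Over all regions called in both lists 21.5% were lower past that fold and 25.9% higher, and over all boundary regions 42.7% and 5.05%. The median over all shared boundary regions was -0.48. When libraries were scaled by boundary regions in place of all regions, every ratio moved up by 0.48, the histone median was -0.27, 23 of 34 regions were below 0, and 6 were lower and 0 higher past 1.5-fold. By the deposited fold, scaled in the same way, the direction reversed, with a median of 0.11 and 9 of 34 regions below 0. Of all 9537 shared boundary regions, 4653 were below 0 by the deposited fold and 7382 by scaled pileup. Scaling by boundary regions sets the median of all shared boundary regions to 0. Here and below, their shares past the fold under that scaling are not given. The scaled local background was lower as well, with a median log2 ratio of -0.45 at the histone boundary regions and -0.33 at all boundary regions.

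Of the 34 boundary regions, 30 covered the promoter of at least 1 histone gene, and families are counted here by the promoters covered, so that a region over a divergent pair counts for both H2A and H2B. All 5 regions over H1 promoters and 4 of 5 over H3 promoters were at least 1.5-fold lower in scaled pileup in POM than in DMSO, against 6 of 12 for H2A, 4 of 8 for H4 and 5 of 13 for H2B. The medians were -0.91 for H1, -0.80 for H3, -0.58 for H4, -0.57 for H2A and -0.52 for H2B, and by the deposited fold all of them were above 0, between 0.05 for H1 and 0.29 for H2A. Scaled by boundary regions they were -0.43 for H1, -0.33 for H3, -0.10 for H4, -0.09 for H2A and -0.04 for H2B. A difference between families was not tested. Among the linker histones, H1-5 had 45 reads in POM and 281 in DMSO, a scaled log2 ratio of -1.31 (counting interval -1.79 to -0.85). H1-2 had 70 reads in POM and 324 in DMSO, a ratio of -0.87. By the deposited fold the ratios of H1-2 and H1-5 reversed, to 0.34 and 0.05. H1-10, with a region at each boundary, had 28 and 26 reads in POM against 169 and 131 in DMSO. Among the H3 genes, H3C2 had 75 reads in POM and 341 in DMSO, a ratio of -0.85, which was 0.30 by the deposited fold.

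The lowest ratio, -1.76 (-2.57 to -1.03), was at a region next to H2AC18 in the 1q21 copies, with 17 reads in POM and 145 in DMSO, whose place is uncertain because the copies can share reads. H4C12 came among the lowest with a covered promoter, with 39 reads in POM and 248 in DMSO, a ratio of -1.33 (-1.86 to -0.84). In POM the region held 2 peaks, and the one over the start of H4C12 had 19 reads. Where a list has several peaks in a region, as POM did in 6 and ATRA+POM in 5 of the 34, the highest stands for it. Of its 50-base promoter words, 37.5% are shared with H4C11, so its reads and those of H4C11, with 36 reads in POM and 190 in DMSO, may be split between them. Other H4 genes stood apart from it. H4C3 had 108 reads in POM and 303 in DMSO, a scaled ratio of -0.15. At the other end H2BC10 had 19 and 48 reads, a ratio of 0.00, and the H2AC11 and H2BC11 pair had 144 and 388 reads, a ratio of -0.09. By place, the boundary medians were -0.52 over 16 regions from H1-1 to H4C8, -0.39 over 3 from H2BC11 to H2AC12, -0.80 over 9 from H2BC13 to H2BC17 and -0.98 over 4 at 1q21. At 1q21 the regions over promoters had -0.59 (H2AC20) and -0.52 (H2BC18). The others there were the uncertain region next to H2AC18 and the far boundary of H2BC18. The latter had 6 reads in POM and a ratio of -1.36 (-2.89 to -0.11). Boundary regions of other genes inside the cluster spans, 13 in number, had a median of -0.17, with 4 lower and 0 higher past the fold.

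Adding POM to ATRA gave ratios of the same sign, in libraries that the comparison of POM with DMSO did not use. Of the 34 boundary regions, 22 were lower by 1.5-fold or more in ATRA+POM than in ATRA and 0 higher, and the median log2 ratio was -0.65. The shares over all regions in both lists were 21.6% lower and 23.7% higher, and over all boundary regions 41.3% and 4.78%. All shared boundary regions had a median of -0.46. Scaled by boundary regions, which moved every ratio up by 0.46, the histone median was -0.19, with 7 lower and 0 higher past the fold. By the deposited fold the median was -0.09 with 24 of 34 below 0, beside 6102 of the 9537 shared boundary regions. All 34 regions were below 0 by scaled pileup, beside 7485 of the 9537. By promoters covered, H1 again had the lowest median, -1.13 with 4 of 5 regions past the fold, followed by H3 (-0.84, 5 of 5), H2A (-0.62, 7 of 12), H2B (-0.60, 7 of 13) and H4 (-0.56, 4 of 8). Scaled by boundary regions the family medians stayed below 0, from -0.68 for H1 to -0.10 for H4, and by the deposited fold they were between -0.19 for H4 and 0.00 for H2A.

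H1-2 had 116 reads in ATRA+POM and 316 in ATRA, a ratio of -1.14 (-1.46 to -0.83). H1-5 had 98 and 265 reads, a ratio of -1.13, and H1-10 had 53 and 43 reads in ATRA+POM against 152 and 128 in ATRA. H2AC4, an H2A gene outside the divergent pairs, had 84 reads in ATRA+POM and 229 in ATRA, a ratio of -1.14 (-1.52 to -0.78). The linker histone genes thus held 3 of the 5 lowest ratios, and the region next to H2AC18 was the lowest at -1.33. Closest to 0 were a region past the far boundary of H2BC5, over no promoter, with 126 reads in ATRA+POM and 157 in ATRA, and the H2AC6 and H2BC4 pair, with 262 and 367. Their ratios were -0.01 and -0.18. The start of H2BC5 lies in the H1-4 region, which had 202 and 350 reads, a ratio of -0.49.

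Across the 34 boundary regions, Pearson's r between the POM over DMSO and the ATRA+POM over ATRA log2 ratios was 0.69 (Spearman's rho 0.71), as a description. Over all 9537 shared boundary regions it was 0.75, so the histone regions were not set apart by it. The points share a cell line, and neighbouring regions share a stretch of the genome. In both comparisons 19 of the 34 regions were lower past the fold (55.9%), against 31.1% of all shared boundary regions. By promoters covered they included 4 regions each of H1, H2B, H3 and H4 and 6 of H2A. Scaled by boundary regions, 6 of the 34 were lower past the fold in POM against DMSO and 7 in ATRA+POM against ATRA. No more than 6 could then pass it in both. By the deposited fold 9 of the 34 ratios of POM over DMSO were below 0, against 33 by scaled pileup. Over all 9537 shared boundary regions these counts were 4653 and 7382.

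**Figure D4:**
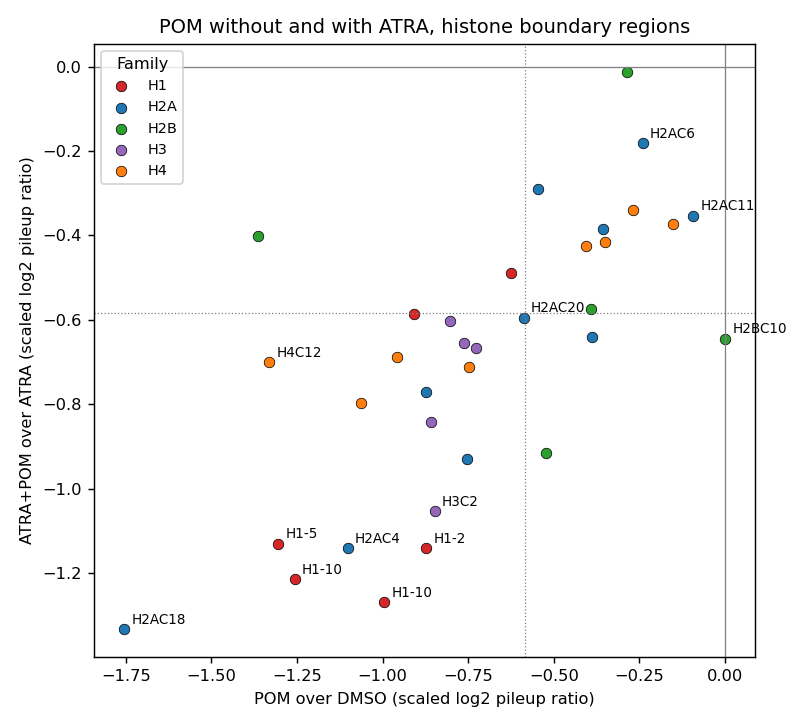
Scaled log2 pileup ratio of POM over DMSO (horizontal axis) and of ATRA+POM over ATRA (vertical axis) for the 34 histone boundary regions, coloured by the family of the nearest histone gene, with some genes named. Dotted lines mark 1.5-fold lower: 19 regions lie beyond both, and by the deposited fold the POM over DMSO median is 0.11 in place of -0.75. Scaled by boundary regions, 6 regions are lower past the fold on the horizontal axis and 7 on the vertical.

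In ATRA+POM against DMSO, 12 of 34 boundary regions were lower by 1.5-fold or more and 0 higher, with a median of -0.48. The shares over all regions were 21.6% lower and 26.7% higher, and over all boundary regions 43.2% and 4.95%, with a median of -0.48 over the shared ones, so the histone boundaries had the median of all gene boundaries. Scaled by boundary regions, which moved ratios up by 0.48, the median was 0.00 with 3 lower and 0 higher, and by the deposited fold it was 0.09. By promoters covered, H1 again had the lowest median, -0.98 with 3 of 5 regions past the fold, against -0.77 for H3, -0.41 for H4, -0.40 for H2A and -0.30 for H2B, and by the deposited fold H1, H2A and H2B changed sign, to 0.12, 0.24 and 0.20. Scaled by boundary regions H1 had -0.50 and H3 -0.29, and H2A, H2B and H4 changed sign, to 0.07, 0.18 and 0.07. H1-10, H1-5 and H1-2 had 4 of the 5 lowest ratios, between -1.17 and -0.98. The H2AC6 and H2BC4 pair, with 262 reads in ATRA+POM and 361 in DMSO, and the H2AC17 and H2BC17 pair, with 259 and 365, had ratios of 0.04 and 0.00. The comparisons of ATRA+POM, POM and ATRA with DMSO share the DMSO library.

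ATRA alone left the histone boundaries near their DMSO level. Of 34 regions, 0 were lower and 0 higher past 1.5-fold, with a median of 0.16 and a range from -0.14 to 0.42. Over all regions in both lists 5.78% were lower and 7.26% higher past the fold, and over all boundary regions 4.58% and 1.5%. The median of all shared boundary regions was 0.01, and 29 of the 34 histone regions were at or above 0. Below 0 were 5 of the 34, beside 4588 of the 9537 shared boundary regions. H2AC4 had 229 reads in ATRA and 206 in DMSO, a ratio of 0.35, and the H2AC12 and H2BC12 pair had 397 and 357, also 0.35. The region past the far boundary of H2BC5 had 157 and 194 reads, a ratio of -0.11, and the region over H1-4 and the start of H2BC5 had 350 and 343, a ratio of 0.23. By the deposited fold the median was 0.17.

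Adding ATRA to POM moved few boundary regions past 1.5-fold, with 0 lower and 2 higher in ATRA+POM than in POM and a median of 0.13. The shares over all regions were 10.3% lower and 12.4% higher, and over all boundary regions 8.23% and 5.88%. By the deposited fold the direction reversed, with a median of -0.18. The 2 regions were H4C12, with 129 reads in ATRA+POM and 39 in POM, a ratio of 0.87 (0.35 to 1.43), and a region at the far boundary of H2BC18 with 19 and 6 reads, a ratio of 0.81 whose counting interval of -0.57 to 2.42 includes 0. The words that H4C12 shares with H4C11 leave its values uncertain here too. Against DMSO, H4C12 had a ratio of -0.44 in ATRA+POM and -1.33 in POM.

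**Figure D5:**
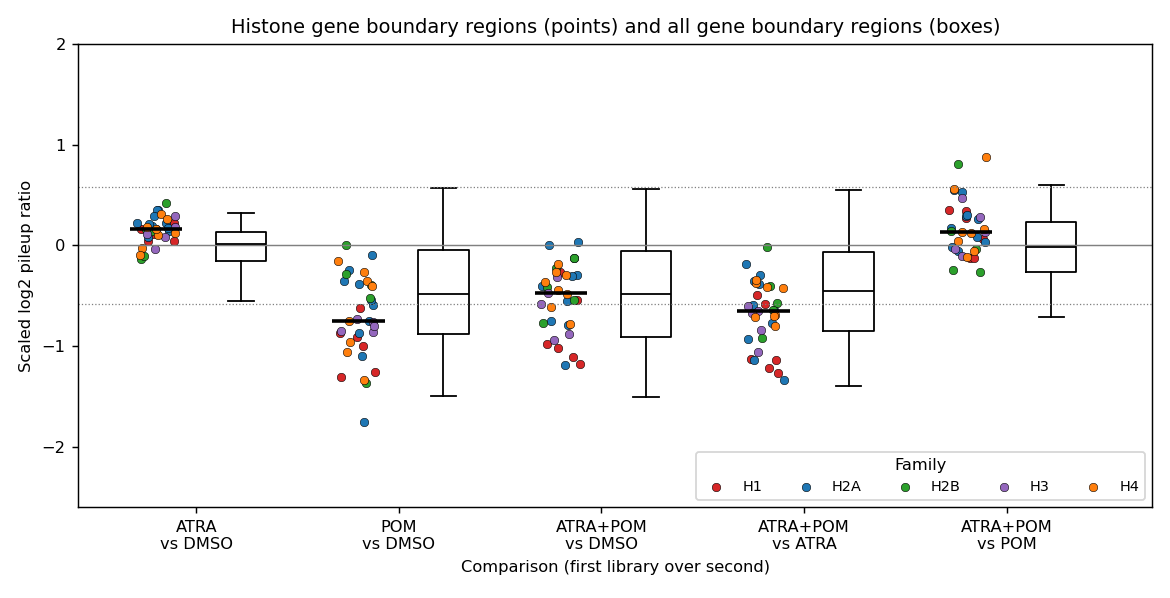
Scaled log2 pileup ratio (vertical axis) of the 34 histone boundary regions (points coloured by the family of the nearest histone gene, black line the median) beside all boundary regions called in all lists (boxes with quartiles and median, whiskers the 5th and 95th percentiles) for 5 comparisons. Dotted lines mark 1.5-fold. The histone medians are 0.16, -0.75, -0.48, -0.65 and 0.13 from left to right, and by the deposited fold they are 0.17, 0.11, 0.09, -0.09 and -0.18.

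Distal histone regions had medians closer to 0 than the boundaries, with single regions on both sides. Their median log2 ratio was -0.31 in POM against DMSO over 35 regions, -0.27 in ATRA+POM against ATRA over 33 and -0.17 in ATRA+POM against DMSO over 37. Over all histone regions called in both lists, 29 of 69 were lower and 4 higher past the fold in POM against DMSO, which became 7 and 11 when scaled by boundary regions. For ATRA+POM against ATRA these counts were 31 and 4 of 67, or 10 and 8, and in ATRA+POM against DMSO 15 and 4 of 71, or 3 and 11. All the regions higher past the fold in these comparisons were distal. Of distal regions 22.9% were lower and 11.4% higher in POM against DMSO, beside 21.5% and 25.9% of all regions. In ATRA+POM against ATRA these were 27.3% and 12.1%, beside 21.6% and 23.7%. In ATRA+POM against DMSO they were 8.11% and 10.8%, beside 21.6% and 26.7%. The distal shares higher past the fold were thus below those of all regions. A region near the 1q42 pair, nearest to H2AC25 (chr1:228453118-228453889), had 45 reads in ATRA+POM, 15 in POM, 25 in ATRA and 17 in DMSO. Its scaled log2 ratio was 1.90 in ATRA+POM against DMSO (1.07 to 2.80), 1.16 in POM against DMSO (0.05 to 2.25) and 1.15 in ATRA+POM against ATRA (0.42 to 1.92). It was the highest of the histone regions in ATRA+POM against DMSO. A region 92 kb from H2BC11, its nearest gene (chr6:27040127-27040622), had 24 reads in ATRA+POM, 22 in POM, 10 in ATRA and 23 in DMSO. ATRA had the lowest value there and POM the highest after scaling, with a ratio of 1.27 to DMSO (0.36 to 2.18). The counting interval of ATRA against DMSO, -2.24 to 0.12, includes 0.

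Histone peaks found in 1 list of a pair were distal, except for at most 1 in each comparison and direction. In POM against DMSO, 10 of 88 histone peaks of POM overlapped none in DMSO, against 27.2% of all POM peaks, and 15 of 86 of DMSO overlapped none in POM, against 36.6%. Between ATRA+POM and ATRA, 13 of 88 peaks were in ATRA+POM only and 16 of 83 in ATRA only, against 33.3% and 26.5%. Between ATRA+POM and DMSO these were 10 of 88 and 13 of 86 (32.7% and 25.8%), in ATRA against DMSO 8 of 83 and 9 of 86 (19.5% and 19.5%), and in ATRA+POM against POM 12 of 88 and 9 of 88 (35% and 17.7%). These shares compare unlike sets. Boundary peaks were 40 of 88 histone peaks in POM and 35 of 86 in DMSO, against 15.6% and 14.9% of all peaks. Of all boundary peaks, between 3.64% and 13.8% were in 1 list only in these comparisons. In POM against DMSO the 10 and 15 peaks were of 48 and 51 distal histone peaks. The share over all distal peaks is not given here. A peak 9 kb from H2BC26 had 43 reads in ATRA+POM and 11 in POM and was called in neither ATRA nor DMSO. A peak 5 kb from H2AC25 followed the same pattern with 23 and 16 reads. A peak 53 kb from H2BC13 was called in POM, with 30 reads, and in ATRA, with 62, and in neither of the other lists. A peak 69 kb from H2BC13 was called in ATRA, with 18 reads, and in DMSO, with 29, and in neither POM-containing list. These were among the peaks with the highest −log10 q-values in their comparisons, and the lowest of the others had 4 reads.

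Genes that act on histone transcription or on the processing of histone messages were read as a list of 28. Of these, 27 had a region within 1 kb of a gene boundary in all lists, and E2F2, a cell cycle transcription factor, had one in ATRA (112 reads) and DMSO (146 reads). In POM against DMSO 9 of 27 were lower and 1 higher past 1.5-fold by scaled pileup, beside the 42.7% and 5.05% of all boundary regions. Of the 27, 11 were lower and 1 higher in ATRA+POM than in DMSO, beside 43.2% and 4.95% of all boundary regions, and 10 were lower and 0 higher in ATRA+POM than in ATRA, beside 41.3% and 4.78%. In ATRA against DMSO 0 of 28 passed the fold in either direction. The lowest in POM against DMSO were CPSF2, SLBP and LSM10, all of the machinery that cuts histone messages, SLBP being the protein that binds their stem-loop. SLBP had 113 reads in ATRA+POM, 58 in POM, 299 in ATRA and 361 in DMSO, with ratios of -1.30 in POM and -1.18 in ATRA+POM against DMSO. CPSF2 had 54, 15, 113 and 131 reads, and LSM10 66, 31, 141 and 180. E2F3 was the gene higher past the fold, with 313, 194, 308 and 285 reads and a ratio of 0.78 in POM and 0.64 in ATRA+POM against DMSO. NFYB and NPAT followed in POM, at 0.37 and 0.23. The lowest in ATRA+POM against DMSO were CCNE1, a cyclin of the entry into S phase, at -1.23, then SLBP and LSM10 (-0.95), and the highest after E2F3 were NPAT at 0.38 and CSTF2 at 0.13. In ATRA against DMSO the lowest were CRAMP1 (-0.57), CCNE1 (-0.56) and NFYB (-0.40), and the highest E2F3 (0.31), CSTF2 (0.29) and POU2F1 (0.24). NPAT, the cofactor of histone locus bodies, had 452 reads in ATRA+POM, 229 in POM, 496 in ATRA and 492 in DMSO. HINFP, which reads H4 promoters, had ratios of 0.15 in POM and -0.06 in ATRA+POM against DMSO. Regulators thus lay on both sides of the histone gene median.

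Of 10 further histone genes in the gene table, outside the name rule and read as variants, 7 had a boundary region in all lists. H2AX, a variant that marks DNA breaks, had 226 reads in ATRA+POM, 100 in POM, 575 in ATRA and 571 in DMSO, a ratio of -1.18 in POM and -0.84 in ATRA+POM against DMSO. H2AZ1 was on the other side of 0, with 369, 160, 365 and 354 reads and ratios of 0.19 and 0.56. H3-3A, a gene for the replacement form of H3, had 178, 106, 416 and 457 reads, and H3-3B, the other, 216, 117, 398 and 353. Their ratios in POM against DMSO were -0.77 and -0.26, beside -0.80 for the median H3 boundary region. H2AJ and H3-4 had no boundary region in any list.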

How the data were processed

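Tn5-tagged DNA from nuclei of OPM-2 cells was sequenced on an Illumina instrument, per the labels' protocols, with 1 library in each of 4 groups, grouped by the treatment label. For each library the authors deposited a peak list and a summit list, called per library. The build is hg38, per the submitters' processing notes. Which aligner and peak caller the authors ran, with which settings, and whether reads were moved for the cut site of Tn5 is not given in the sources used here. In the deposited lists the score repeats the −log10 q-value, multiplied by 10 and truncated. The deposited fold is read, from its values, as a ratio of pileup at the summit to a local background, with 1 added to each. The authors' −log10 p-value and q-value columns describe the summit, whose offset from the peak start (a deposited column of another kind) was used for its position.

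Only chromosomes 1 to 22 and X entered, so 5 peaks were left out. Gene bodies were those of RefSeq on GRCh38.p14, which has the coordinates of hg38. Pileup and background were solved from the fold and p-value under a Poisson tail, an assumption about the caller, and the whole-number pileup gave the deposited p within 0.01 for 100% of peaks in each list. The solving step was tried on data simulated with the same formulas, which does not test the assumption about the caller. Read totals were not used here. Peaks of the lists that overlapped by 1 bp or more were merged into regions, and the highest peak of a list stood for it. Boundary means a summit within 1 kb of either end of the gene. Regulator, variant and marker genes were read at any region that close, whichever gene body was nearest. A difference was named at 1.5-fold after scaling by the 42930 regions called in all lists, since with 1 library per group no test was possible. Intervals are exact binomial (Clopper-Pearson) at 95%, cover counting error only, and treat reads as independent, which PCR copies are not.

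Every cluster and family was named. The text also names the 10 regions with the highest DMSO −log10 q-value and, per comparison, regions taken from the 5 highest and 5 lowest ratios and from the 5 leading peaks of 1 list only in each direction. The regulators named are the 3 highest and 3 lowest ratios per comparison with DMSO, with HINFP and E2F2 added after their values were seen, as were the members near 0 and the variants named. A few genes covered by the rule are left out of the text. The members and gene lists were chosen with earlier results of these data known. Calculations used Python 3.11.15 with numpy 2.4.6, pandas 2.3.3 and scipy 1.17.1.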

Additional observations from a re-analysis of the deposited data

How the results depend on the processing

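No paired analysis was possible because each group has 1 library, and no library could be left out for the same reason. Under the alternatives tried, 54 of 99 summary values stayed close to the value reported, and 4 medians changed sign. The median log2 ratio over all histone regions, boundary and distal, reversed in POM against DMSO by the deposited fold (0.10, against -0.51 as reported) and in ATRA+POM against DMSO by the deposited fold (0.0324) and when scaled by boundary regions (0.15, against -0.32). In POM against DMSO it was -0.033 scaled by boundary regions and -0.75 over boundary regions only. ATRA+POM against DMSO gave -0.48 over boundary regions only. ATRA+POM against ATRA gave -0.0738 scaled by boundary regions, -0.65 over boundary regions only and -0.0488 by the deposited fold, against -0.53. ATRA+POM against POM changed sign too, to -0.0782 by the deposited fold against 0.10. The deposited fold divides by the local background, with 1 added to pileup and to background. At the histone boundary regions the median scaled log2 ratio of background was -0.45 in POM against DMSO and -0.56 in ATRA+POM against DMSO. It was -0.48 in ATRA+POM against ATRA and -0.02 in ATRA+POM against POM. The smallest background was 0.55 reads in POM and 2.36 in DMSO. How far the background or the added 1 sets the direction was not tested.

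Of the 34 boundary regions, 25 changed sign by the deposited fold in POM against DMSO, 18 in ATRA+POM against DMSO and 10 in ATRA+POM against ATRA. Those past 1.5-fold by pileup that did so, distal ones included, were in POM against DMSO a region nearest to H4C15 (0.17), H2AC20 (0.39), H4C2 (0.68), H3C2 (0.30), H2AC4 (0.10), H1-2 (0.34), H1-4 (0.12), H3C4 (0.21), the H2AC7 and H2BC7 pair (0.31), H1-3 (0.0101), H3C10 (0.0839), H2AC14 (0.0385), H1-5 (0.0529) and H3C12 (0.10). For ATRA+POM against DMSO these were H4C2 (0.25), H3C2 (0.0897), H2AC4 (0.33), H1-2 (0.10) and H1-5 (0.13), and in ATRA+POM against ATRA H2AC20 (0.0612), the H2AC7 and H2BC7 pair (0.0057) and H1-3 (0.18).

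At 2-fold, histone regions lower and higher numbered 1 and 0 in ATRA against DMSO (3 and 3 at 1.5-fold). They numbered 10 and 2 in POM against DMSO (29 and 4) and 10 and 3 in ATRA+POM against ATRA (31 and 4). In ATRA+POM they were 4 and 3 against DMSO (15 and 4) and 0 and 2 against POM (3 and 8). The shares of all regions past 2-fold are not given here. Scaled by boundary regions, histone regions lower and higher past 1.5-fold were 7 and 11 in POM against DMSO. They were 3 and 11 in ATRA+POM against DMSO and 10 and 8 in ATRA+POM against ATRA. Histone peaks per list numbered 40, 40, 35 and 35 in ATRA+POM, POM, ATRA and DMSO when only those within 1 kb of a histone gene boundary counted. With a limit of 10 kb they numbered 59, 60, 50 and 55 in the same order. With a summit within 250 bp as the criterion of sharing, peaks of 1 list only numbered 12 gained and 15 lost in ATRA against DMSO. They were 25 gained and 22 lost in POM against DMSO, and 19 and 17 in ATRA+POM against DMSO. In ATRA+POM they were 22 gained and 17 lost against ATRA, and 16 and 16 against POM. With lists of equal length the gained and lost peaks of ATRA+POM numbered 3 and 12 against DMSO, 6 and 15 against ATRA and 4 and 12 against POM. Against DMSO they numbered 8 and 8 in ATRA and 10 and 11 in POM. The median rank by pileup was 19.6% in ATRA+POM, 24.3% in POM, 16.3% in ATRA and 17.8% in DMSO. Within the whole list it was 24.0%, 32.1%, 16.6% and 19.4% in the same order. Of the results for single regions, 480 kept their class, 202 moved and 22 reversed. After scaling to DMSO, the smallest called pileup was 9.9 reads in ATRA+POM, 10.1 in POM, 9.16 in ATRA and 8 in DMSO.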
